A study of Mus musculus with 2 samples.

Results

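The genes described here are 8 members of the bone morphogenetic protein (BMP) pathway, taken by role: the ligands Bmp2, Bmp4 and Bmp7, the secreted antagonist Grem1, the type I receptor Bmpr1a, and the signal carriers Smad1, Smad5 and Smad4. They were chosen by name, and each was measured as open chromatin in the peaks that lay in its gene body or the 2 kb upstream of it (GENCODE M21, mm10). The 8 genes are among 26611 with such a peak region in both libraries. They held 54 of 159560 peaks for Enl-WT against 42 of 130027 in Enl-T1, which joined into 34 of 110706 shared regions, a shared region being a place where peaks of the libraries overlap by at least 1 bp.

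Nuclei came from mouse kidneys of E15.5 embryos (the embryonic day) and were profiled by single-nucleus ATAC-seq. In this assay a transposase inserts adapters where chromatin is accessible, and the insertions in each peak are counted for every nucleus barcode. Enl-WT kidneys were Enl +/+; Wt1 GFPCre/+, and Enl-T1 kidneys were Enl flox-T1/+; Wt1 GFPCre/+, with 1 library each. Both therefore carry the GFPCre knock-in, which inactivates 1 Wt1 allele, and in Enl-T1 this Cre switches on an Enl allele with the small in-frame insertion called T1 in the nephron and stromal lineages, not in ureteric epithelium or endothelium. With 1 library per group no test was possible, no replicate check exists, and all intervals below are exact 95% intervals that cover counting error only. The number of embryos behind each library is not known here, and the peak counts at Enl do not check the genotype, because an insertion of this size leaves no mark in them.

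BMP ligands bind a complex of type I and type II receptors at the cell surface, the receptor phosphorylates SMAD1 or SMAD5, and these enter the nucleus with SMAD4 to act on target genes such as the Id genes. Gremlin 1 binds BMP2 and BMP4 outside the cell and keeps them from their receptors. In the embryonic kidney BMP7 sustains the nephron progenitors, BMP4 in the mesenchyme around the ureteric bud restrains its outgrowth and branching, and gremlin 1 counters BMP4 so that the bud can grow out.

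The sequences shown lie in 4 of the 5 member regions that were at least 1.5-fold apart in progenitor-like nuclei over peaks of like position. They are the promoters of Bmp4 and Grem1 (the 250 bases before the start site, in the direction of transcription) and the centres of 1 intronic region each of Bmp7 and Bmpr1a (300 bases, plus strand). All are RefSeq reference sequence of GRCm38.p6 (mm10), and capitals mark matches, on either strand, to the 8 motifs searched. These were the SMAD elements written as GGCGCC and as GTCTAGAC, the GC box written as GGGCGG, the CCAAT box, the TATA element written as TATAAA, the TEAD motif written as GGAATG, the TCF/LEF motif written as ATCAAAG and the posterior HOX motif written as TTTATGG. No matches overlap within the 4 stretches.
Bmp4 promoter, chr14:46390670-46390919, minus strand: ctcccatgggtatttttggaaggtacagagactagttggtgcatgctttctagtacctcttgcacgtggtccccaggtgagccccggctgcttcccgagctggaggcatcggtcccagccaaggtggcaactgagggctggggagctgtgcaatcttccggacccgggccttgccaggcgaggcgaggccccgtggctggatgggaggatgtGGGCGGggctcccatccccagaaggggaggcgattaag
Grem1 promoter, chr2:113758649-113758898, minus strand: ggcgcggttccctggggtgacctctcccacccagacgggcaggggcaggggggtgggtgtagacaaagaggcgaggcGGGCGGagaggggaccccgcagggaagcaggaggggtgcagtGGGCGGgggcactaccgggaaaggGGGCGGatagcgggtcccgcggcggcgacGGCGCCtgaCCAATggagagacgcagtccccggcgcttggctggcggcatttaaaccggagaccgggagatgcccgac
Bmp7 intron, chr2:172925062-172925361: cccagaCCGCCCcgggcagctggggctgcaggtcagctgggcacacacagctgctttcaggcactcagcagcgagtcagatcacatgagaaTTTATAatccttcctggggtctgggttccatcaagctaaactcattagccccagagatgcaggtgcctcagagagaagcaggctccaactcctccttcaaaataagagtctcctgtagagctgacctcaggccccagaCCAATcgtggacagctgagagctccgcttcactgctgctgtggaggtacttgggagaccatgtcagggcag
Bmpr1a intron, chr14:34449898-34450197: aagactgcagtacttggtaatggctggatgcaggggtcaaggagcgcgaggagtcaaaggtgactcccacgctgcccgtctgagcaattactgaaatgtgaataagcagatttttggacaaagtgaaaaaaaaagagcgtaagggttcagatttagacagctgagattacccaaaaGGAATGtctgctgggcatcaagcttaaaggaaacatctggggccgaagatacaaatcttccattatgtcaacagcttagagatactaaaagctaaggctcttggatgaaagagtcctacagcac

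The Grem1 promoter held 3 GC boxes, 1 GGCGCC and 1 CCAAT in sequence that was 72.0% G or C, and the Bmp4 promoter held 1 GC box at 63.2%. Over all 32536 promoters the median was 52.4% G or C, 33.0% held a GC box, 33.8% a CCAAT and 9.65% a GGCGCC. The Bmp7 intron held 1 GC box, 1 TATAAA and 1 CCAAT, and the Bmpr1a intron 1 GGAATG. Over the same 300 bases of 76124 matched regions these motifs stood in 20.01%, 13.8%, 31.5% and 18.4%. None of the 4 stretches held GTCTAGAC, ATCAAAG or TTTATGG.

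The libraries differed in depth and make-up. Enl-WT kept 9472 nuclei with a median of 14789.5 counts, Enl-T1 kept 12635 with a median of 8753, and 149 of the kept barcodes were shared by name. Nuclei were clustered without the regions of the pathway genes, and the 18 clusters were called after marker genes. Nephron progenitor-like nuclei numbered 1679 for Enl-WT against 4241 in Enl-T1, interstitial stroma-like 3219 and 4913, ureteric epithelium-like 893 and 1715, and endothelium-like 711 and 510. These 4 classes were compared. Early nephron-like nuclei numbered 782 for Enl-WT against 84 in Enl-T1, distal tubule-like 741 and 84, and immune-like 101 and 167, and were not among the classes compared. Podocyte-like and proximal tubule-like nuclei numbered 331 and 789 in Enl-WT against 21 and 38 in Enl-T1, and smooth muscle-like nuclei 36 in Enl-WT, so these have no comparison. The progenitor-like nuclei of the libraries lay in different clusters, 1651 Enl-WT nuclei in cluster 4 and 4147 Enl-T1 nuclei in cluster 0. Among the stroma-like clusters, cluster 7 held 4 Enl-WT and 1142 Enl-T1 nuclei. In the progenitor-like class the summed CPM (counts per 1000000 counts in shared regions of the class) of the 8 progenitor markers was 444 for Enl-WT against 326 in Enl-T1, and that of the 8 early nephron markers was 377 and 494. In Enl-WT early nephron-like nuclei the progenitor markers summed to 310 and the early nephron markers to 594. The Enl-T1 progenitor-like sums thus lay between those of Enl-WT progenitor-like and early nephron-like nuclei. No marker of either list was at 0 in progenitor-like nuclei. The part of this shift between the libraries in the results below was not tested.

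Each ligand had its own pattern of openness among the Enl-WT nuclei. Bmp7 was highest in distal tubule-like nuclei, at 159.6 CPM, followed by ureteric epithelium-like nuclei at 133.9, podocyte-like at 127.4, proximal tubule-like at 126.8 and progenitor-like at 108.3, and lowest in immune-like nuclei at 33.0. Its interval in progenitor-like nuclei, 102.4 to 114.5, lay below that of proximal tubule-like and above that of early nephron-like nuclei. Bmp4 was highest in proximal tubule-like nuclei at 100.7 CPM, and the values down to interstitial stroma-like nuclei at 72.7 had intervals that overlapped from each neighbour to the next. Endothelium-like, progenitor-like and ureteric epithelium-like nuclei followed at 53.8, 49.0 and 47.7 without separating, and immune-like nuclei had 19.2. Bmp2 was highest in immune-like nuclei at 77.7 CPM from 101 nuclei, and no neighbours below that separated, down to 27.4 in progenitor-like nuclei.

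For Grem1 the intervals of neighbouring classes all overlapped, while those of its highest and lowest classes did not. Its level ran from 15.8 CPM in distal tubule-like, 15.3 in early nephron-like and 13.7 in progenitor-like nuclei down to 6.81 in interstitial stroma-like, 2.29 in endothelium-like and 2.13 in immune-like nuclei. Per kb of shared region, Grem1 had 7.45 CPM in Enl-WT progenitor-like nuclei, against 6.20 for Bmp2, 15.7 for Bmp4 and 14.6 for Bmp7.

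Among the receptor and SMAD genes, Bmpr1a was lowest and Smad1 highest in endothelium-like nuclei. Bmpr1a stood at 81.7 CPM in podocyte-like nuclei and between 40.8 and 54.7 in the other nephron-like, ureteric and stroma-like classes of Enl-WT. It had 30.9 in immune-like and 15.2 in endothelium-like nuclei, with intervals that overlapped. In Enl-T1 the endothelium-like value of Bmpr1a was 18.6, again its lowest class. Smad1 went the other way, at 124.3 CPM in Enl-WT endothelium-like nuclei and 143.5 in the Enl-T1 ones, against 56.5 to 80.3 in all other Enl-WT classes. Smad5 was also highest in endothelium-like nuclei, at 74.9 CPM, with an interval that overlapped that of ureteric epithelium-like nuclei at 61.0. Smad4, the partner of both, and Smad5 varied least, each by 1.72 times from the lowest class to the highest. The highest class of Smad4 was immune-like nuclei, at 75.6 CPM.

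**Figure D1:**
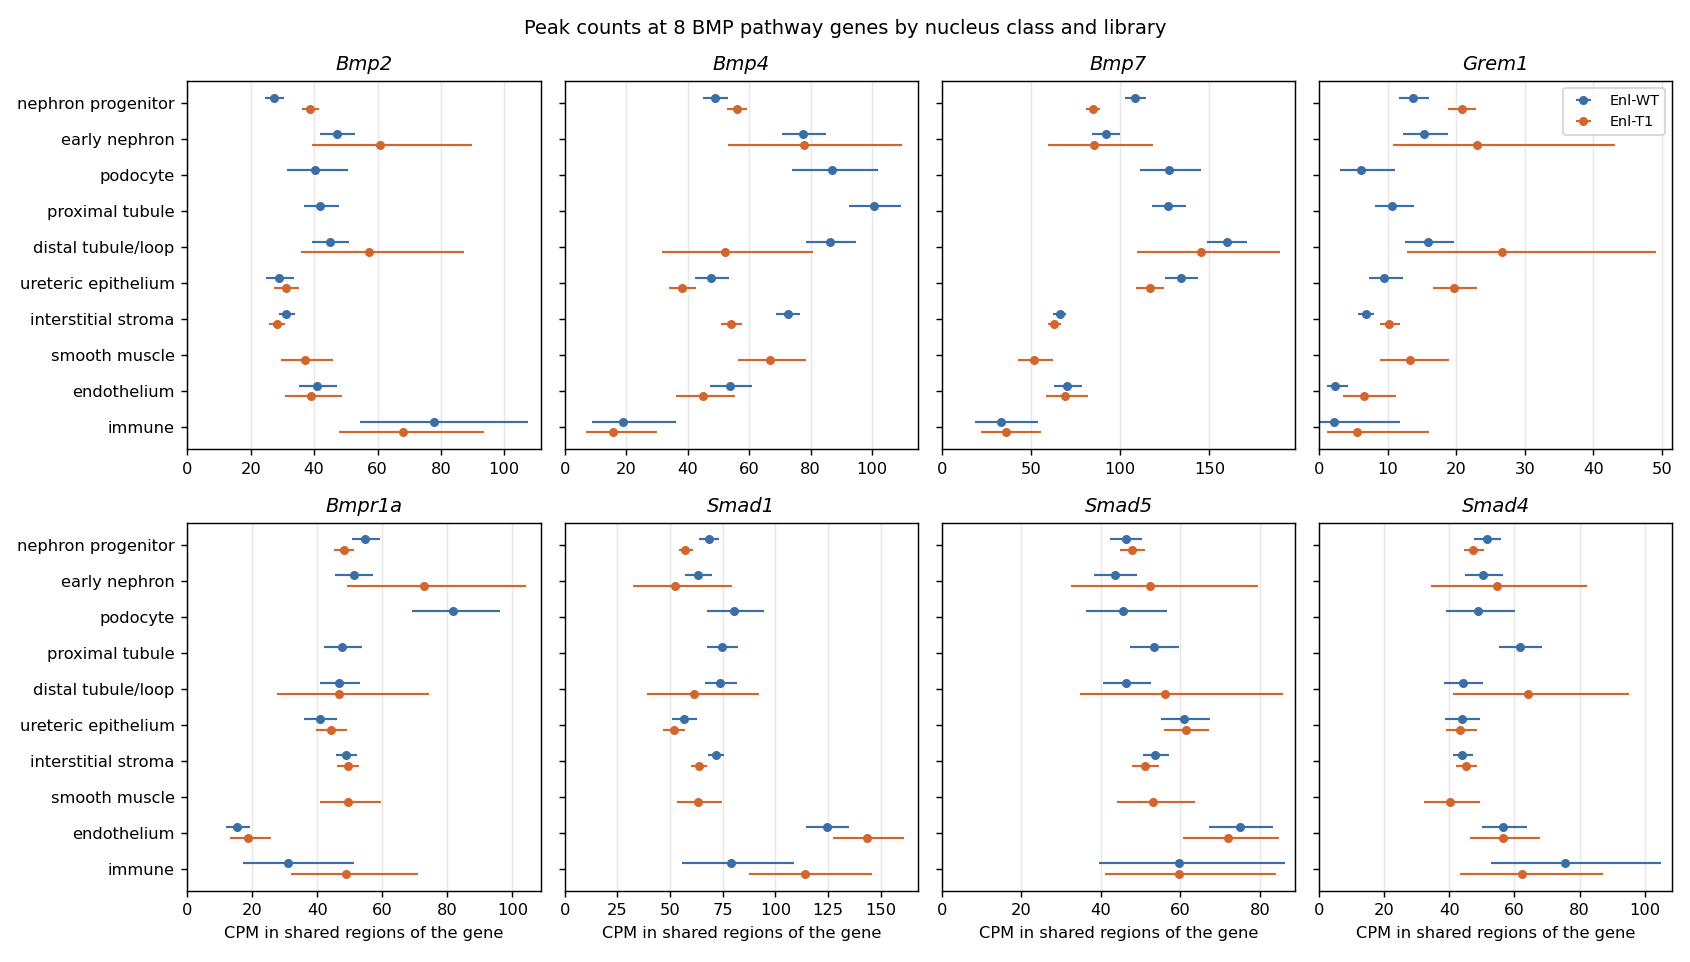
CPM (x axis) in the shared regions of each gene, by nucleus class (y axis), for Enl-WT (blue) and Enl-T1 (orange), 1 library each; bars are 95% counting intervals and classes under 50 nuclei in a library are left out. Bmpr1a is lowest and Smad1 highest in endothelium-like nuclei of both libraries, at 15.2 and 124.3 CPM in Enl-WT, while Smad4 runs from 43.9 to 75.6 CPM in Enl-WT.

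Across the 17 profiles of a class in a library, which share peaks and, by library, depth, the genes most like Bmp4 by Pearson's r of log2(CPM + 1) were Fndc3c1 at 0.95, Irx2 at 0.93 and the non-coding 4933425B07Rik at 0.92. Those most like Bmp7 were Dcdc2a at 0.96, Slc29a4 at 0.95 and Ccdc160 at 0.95. Those most like Grem1 were the non-coding Gm20757 at 0.93, Slc39a11 at 0.92 and Thsd7b at 0.92.

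Summed over all shared regions of a gene, the 8 members differed little between the libraries. Where a pair of values is given, Enl-WT comes first. Called here means at least 1.5-fold apart with at least 200 counts in the class. In progenitor-like nuclei 1 of 8 was higher in Enl-T1 and 0 were lower, beside 3.82% of all 24318 measured genes higher and 4.29% lower, and the members' median log2 ratio was -0.04, beside 0.01 over all genes. In interstitial stroma-like nuclei 1 of 8 was higher and 0 lower, beside 1.75% and 1.27%, with a median of -0.07. In ureteric epithelium-like nuclei 1 of 8 was higher and 0 lower, beside 1.34% and 0.697%. In endothelium-like nuclei 0 of 7 measured were called, beside 1.06% higher and 1.43% lower. The higher gene was Grem1 each time. In stroma-like and ureteric epithelium-like nuclei a large part of its ratio rests on a region in which the libraries' peaks barely overlap, as given next.

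For the antagonist Grem1, Enl-T1 was higher over all regions, but only its upstream region compared like with like. In progenitor-like nuclei the gene had 317 counts (13.7 CPM) for Enl-WT against 835 (20.8 CPM) in Enl-T1, a log2 ratio of 0.61 with an interval of 0.34 to 0.88. In interstitial stroma-like nuclei it had 6.81 and 10.2 CPM, a log2 ratio of 0.59, and in ureteric epithelium-like nuclei 9.48 and 19.6 CPM, a log2 ratio of 1.05. Endothelium-like nuclei had only 21 and 26 counts. In the region 1.4 kb into the gene (chr2:113756416-113758049) the Enl-WT peak spans 862 bp and the Enl-T1 peak 812 bp, with 40 bp in common, so their counts come from different sequence. There stroma-like nuclei had 2.22 and 5.46 CPM, a log2 ratio of 1.29, and progenitor-like nuclei 7.81 and 11.7. In the upstream region (chr2:113758376-113759349), which holds the promoter printed above, the peaks matched over at least 80% of each, and here Grem1 had 8.31 CPM of matched peaks for Enl-WT against 12.5 in Enl-T1 in progenitor-like nuclei, a log2 ratio of 0.59 (0.18 to 1.02). The same region stood at 6.48 and 6.61 CPM in stroma-like nuclei, a log2 ratio of 0.03, and at 9.52 and 12.02 in ureteric epithelium-like nuclei, a log2 ratio of 0.34 with an interval that includes 0. In progenitor-like nuclei its ratio ran from 0.25 at resolution 2 to 0.63 over 9 other ways of drawing the class, and was -1.37 in cluster 4 alone, where Enl-T1 had 2 counts. The progenitor-like call of the gene sum lies close to the threshold: over 16 alternatives its log2 ratio ran from -0.98 to 0.78, the negative value being that of cluster 4 alone with 94 Enl-T1 nuclei.

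Peaks matched in this way, by at least 80% of their length in both directions, were available for 18 of the 34 member regions, or 52.9%. Over all 110706 shared regions there were 76162 matched pairs of peaks, which is 68.8% of the number of regions. A region can hold more than 1 pair, and in counts over all regions each pair is taken as 1 matched region. In 13 of the other 16 the Enl-WT peaks cover more bases, and the 34 regions together cover 38773 bp for Enl-WT against 33138 bp in Enl-T1. The values below come from matched peaks where they exist, a choice made after the data were seen. In progenitor-like nuclei 13 matched regions had enough counts, of which 2 were at least 1.5-fold higher in Enl-T1 and 3 lower, beside 11.6% and 11.7% of all 50555 matched regions, so counts of this size are near the background share. In interstitial stroma-like nuclei 16 were measured and 0 were called, beside 5.16% higher and 3.18% lower. Of all 34 regions without this condition, 3 were higher and 6 lower among 25 measured in progenitor-like nuclei, beside 12.4% and 12.9% of all shared regions, and 1 higher and 3 lower among 30 in stroma-like nuclei, beside 6.27% and 4.69%.

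Bmp4 was the member with the highest ratio at its promoter. In the region at its start site (chr14:46390190-46391075), which holds the promoter printed above, progenitor-like nuclei had 219 counts for Enl-WT against 898 in Enl-T1. These are 13.4 and 30.8 CPM of matched peaks, a 2.31-fold difference with a log2 ratio of 1.21 (0.90 to 1.52). The peaks there are 870 and 882 bp long and share 866 bp. The other classes compared showed little of this. Stroma-like nuclei had 23.3 and 25.3 CPM and ureteric epithelium-like nuclei 10.9 and 11.9, both with intervals of the ratio that include 0. Among the Enl-WT nuclei alone, the same region had 32.8 CPM in early nephron-like and 41.8 in proximal tubule-like nuclei, so the Enl-T1 progenitor-like value stood beside that of Enl-WT early nephron-like nuclei, whose interval was 27.5 to 38.7. The 94 Enl-T1 nuclei in cluster 4, the cluster of most Enl-WT progenitor-like nuclei, had 10 counts there, or 15.8 CPM with an interval of 5.14 to 36.9, and a log2 ratio of 0.24 that covers 0. Over the 9 other ways of drawing the class the log2 ratio ran from 1.02 to 1.22.

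Over the whole Bmp4 gene this was largely hidden. The gene sum was 49.0 and 56.0 CPM in progenitor-like nuclei, a log2 ratio of 0.19, and 72.7 and 54.1 in interstitial stroma-like nuclei, a log2 ratio of -0.43. In cluster 4 alone the progenitor-like gene sum turned, to a log2 ratio of -0.96 from 22 Enl-T1 counts. Over matched peaks or start site regions alone the stroma-like ratio turned, to 0.12 and 0.15. Most of the counts lie in a second region 2.5 kb into the gene (chr14:46387003-46389247), at an inner start site of Bmp4 and at the gene Gm15222. Its peak spans 2245 bp for Enl-WT against 941 bp in Enl-T1, so the lower stroma-like value there, 56.2 and 35.8 CPM, is a sum over unequal lengths and is no comparison of openness. Outside the gene, a region 7.8 kb upstream of the Bmp4 start site was also higher in Enl-T1 progenitor-like nuclei, at 5.25 and 9.10 CPM of matched peaks, a log2 ratio of 0.79 (0.29 to 1.32), and stood at 4.29 and 4.40 in stroma-like nuclei. A region 46 kb upstream, at the gene Gm15221, had 852 and 492 counts in stroma-like nuclei, a log2 ratio of -0.70, over peaks of 1119 and 856 bp. With these same peaks progenitor-like nuclei had 325 and 722 counts, a log2 ratio of 0.36 (0.09 to 0.64).

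Bmp2, the ligand closest in sequence to Bmp4, had a gene sum of 27.4 CPM for Enl-WT against 38.7 in Enl-T1 progenitor-like nuclei, a log2 ratio of 0.50 (0.31 to 0.69), short of the fold used for a call. Its start site region (chr2:133551761-133553929) had 335 and 898 counts, a log2 ratio of 0.63, over 2169 bp for Enl-WT against 1850 bp in Enl-T1. The single matched region of Bmp2, 2.6 kb into the gene, had 10.7 and 14.7 CPM, a log2 ratio of 0.45 with an interval above 0. In stroma-like nuclei the gene sum was 31.3 and 28.2 CPM, with an interval of the ratio that includes 0. A region 26 kb upstream had 4.96 and 2.98 CPM of matched peaks in stroma-like nuclei, a log2 ratio of -0.74 (-1.35 to -0.14), from 134 and 77 counts.

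Bmp7 was lower in Enl-T1 progenitor-like nuclei, and most of all in its introns. The gene sum was 108.3 CPM for Enl-WT against 84.7 for Enl-T1, with a log2 ratio of -0.35 (-0.46 to -0.25). In cluster 4 alone it turned, to 0.30 from 116 Enl-T1 counts. Ureteric epithelium-like nuclei were lower too, at 133.9 and 116.5 CPM, a log2 ratio of -0.20 (-0.34 to -0.06), while stroma-like and endothelium-like nuclei had log2 ratios of -0.07 and -0.02 with intervals that include 0. Over matched peaks the log2 ratio was -0.47 in progenitor-like and -0.26 in ureteric epithelium-like nuclei. There it was -0.15 (-0.29 to -0.001) in stroma-like nuclei, and -0.11 in endothelium-like nuclei with an interval that includes 0. The intronic region 15 kb from the start site (chr2:172924742-172925677), the centre of which is printed above, had 391 and 332 counts, or 23.9 and 11.4 CPM of matched peaks, a 2.09-fold lower level with a log2 ratio of -1.07 (-1.37 to -0.76). In stroma-like nuclei it had 4.22 and 4.79 CPM, and in ureteric epithelium-like nuclei 13.3 and 12.5. Among Enl-WT classes it was high in progenitor-like and distal tubule-like nuclei, at 23.9 and 22.2 CPM, and lower in early nephron-like nuclei at 8.43. The 94 Enl-T1 nuclei of cluster 4 had 27 counts, or 42.7 CPM (23.1 to 72.4), beside 24.0 CPM in the Enl-WT nuclei of that cluster, a log2 ratio of 0.83 (-0.08 to 1.63). The 9 other ways of drawing the class gave log2 ratios of -1.16 to -0.71, the latter at resolution 2.

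A second intronic region of Bmp7, 39 kb from the start site, had 10.3 and 6.63 CPM in progenitor-like nuclei, a log2 ratio of -0.64 (-1.08 to -0.20). In cluster 4 alone Enl-T1 had 9 counts and the ratio was 0.50 with an interval that includes 0. Among Enl-WT classes this region was most open in the tubules, with 65.8 CPM in distal tubule-like, 57.4 in proximal tubule-like and 53.1 in ureteric epithelium-like nuclei. The Enl-T1 ureteric epithelium-like value was 42.1, a log2 ratio of -0.34 (-0.60 to -0.07), and stroma-like nuclei had 6.11 and 4.87 CPM, a log2 ratio of -0.33 with an interval that includes 0. The Bmp7 promoter region was at 64.0 and 53.5 CPM in progenitor-like nuclei, a log2 ratio of -0.26, and at 31.0 and 29.4 in stroma-like nuclei. Of the flanking regions, 1 at 25 kb upstream had 8.004 and 4.74 CPM in progenitor-like nuclei, a log2 ratio of -0.76 (-1.26 to -0.25), and 1 at 21 kb upstream had 146 and 158 counts, a log2 ratio of -0.68 over peaks of 1282 and 961 bp. After each nucleus was thinned to 4000 counts, 18.9% of 1647 Enl-WT and 15.0% of 4133 Enl-T1 progenitor-like nuclei had a fragment in a Bmp7 region, with intervals of 17.0% to 20.9% and 13.97% to 16.2%. Without thinning the shares were 50.6% and 32.4%, at the unequal depths given above. Of the other members only Bmp2 had thinned intervals that did not overlap, at 5.16% (4.14% to 6.34%) and 7.65% (6.85% to 8.50%). The thinned shares of Grem1, 3.40% and 4.21%, and of Bmp4, 9.17% and 10.2%, had intervals that overlapped.

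**Figure D2:**
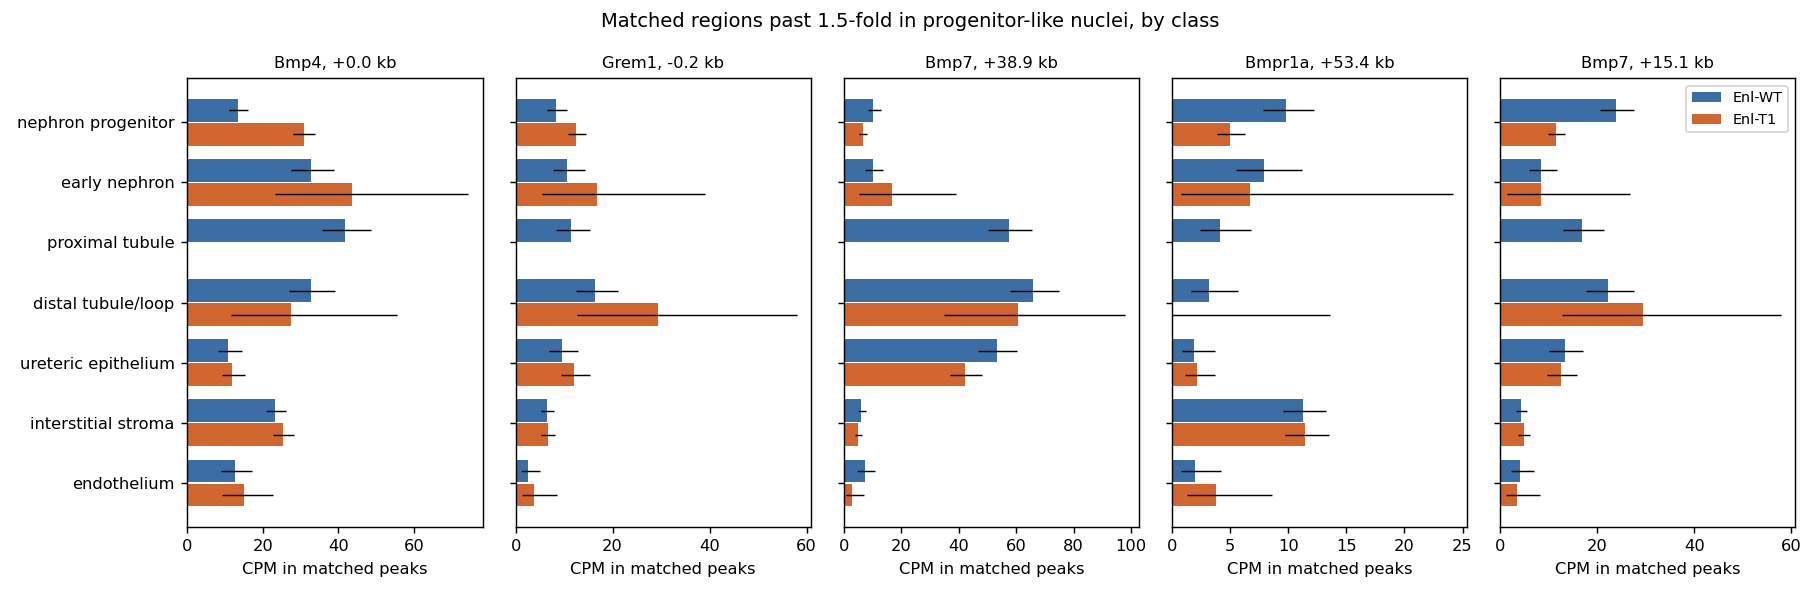
CPM in matched peaks (x axis) of the 5 member regions past 1.5-fold in progenitor-like nuclei, by class (y axis), for Enl-WT (blue) and Enl-T1 (orange), 1 library each, with 95% counting intervals; titles give the distance from the start site, and a class under 50 nuclei in a library has no bar. In progenitor-like nuclei the Bmp4 start site region goes from 13.4 to 30.8 CPM and the Bmp7 region at 15 kb from 23.9 to 11.4, while in stroma-like nuclei these regions stand at 23.3 and 25.3 and at 4.22 and 4.79.

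The receptor Bmpr1a was near equal at its promoter and lower in an intron in Enl-T1 progenitor-like nuclei. Its gene sum was 54.7 CPM for Enl-WT against 48.2 for Enl-T1, with a log2 ratio of -0.18, which turned to 0.13 over start site regions alone and to 0.06 after thinning. The promoter region had 48.6 and 51.7 CPM of matched peaks, a log2 ratio of 0.09 with an interval that includes 0. The intronic region 53 kb into the gene (chr14:34449458-34450495), the centre of which is printed above, had 9.84 and 4.98 CPM, from 161 and 145 counts, a log2 ratio of -0.98 (-1.46 to -0.50). Cluster 4 alone gave -0.65 from 161 and 4 counts. The same region was at 11.3 and 11.5 CPM in interstitial stroma-like nuclei. A neighbouring intronic region 61 kb into the gene had 190 and 111 counts in progenitor-like nuclei, or 8.20 and 2.77 CPM of shared regions and a log2 ratio of -1.57. Its peaks, 1200 and 908 bp long, share 764 bp, and with these same peaks stroma-like nuclei had 1.52 and 2.21 CPM from 58 and 79 counts.

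At the SMAD genes the promoter regions were under the fold used for a call. The Smad1 promoter region had a log2 ratio of -0.14 (-0.34 to 0.05) in progenitor-like nuclei and -0.07 in stroma-like nuclei, and that of Smad4 -0.13 (-0.29 to 0.04) and 0.03. The Smad5 start site region, where the peaks are not matched and the small genes Gm27271, Gm27301 and Gm27834 overlap, had 39.0 and 42.2 CPM of shared regions in progenitor-like nuclei and 44.4 and 42.4 in stroma-like nuclei. As gene sums, Smad1 had 68.4 and 57.3 CPM in progenitor-like nuclei, Smad5 46.2 and 47.8, and Smad4 51.6 and 47.4. The log2 ratios were -0.26, 0.05 and -0.12, of which only that of Smad1 has an interval that excludes 0. Over matched peaks this was not so. There Smad1 had a log2 ratio of -0.07 (-0.22 to 0.09) and Smad4 -0.16 (-0.31 to -0.01), while Smad5 had only 38 and 46 counts.

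Smad1 also had intronic regions with lower CPM in Enl-T1 where the peaks are not matched. Over its matched peaks together the log2 ratio was -0.07 in progenitor-like and -0.12 in stroma-like nuclei, both with intervals that include 0. The region 14 kb into the gene had 246 and 163 counts in progenitor-like nuclei, or 10.6 and 4.06 CPM of shared regions, a log2 ratio of -1.39, and 4.19 and 2.66 CPM in stroma-like nuclei, a log2 ratio of -0.66. Its peaks are 1093 and 866 bp long, just short of a match, and with the same peaks endothelium-like nuclei had 12.7 and 14.6 CPM, a log2 ratio of 0.20 with an interval that includes 0. In a further intronic region, 39 kb into the gene, the log2 ratio was -0.73 and -0.80 in progenitor-like and stroma-like nuclei. Its peaks cover 1334 bp for Enl-WT against 694 bp in Enl-T1, so these are sums over unequal lengths and no comparison of openness. The intronic region of Smad1 at 18 kb was open above all in endothelium-like nuclei, where its matched peaks had 231 counts (35.7 CPM) against 160 (55.5 CPM), a log2 ratio of 0.64 (0.21 to 1.06). In stroma-like nuclei the order was the opposite, at 22.5 CPM for Enl-WT and 16.5 for Enl-T1, a log2 ratio of -0.45 (-0.71 to -0.19).

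**Figure D3:**
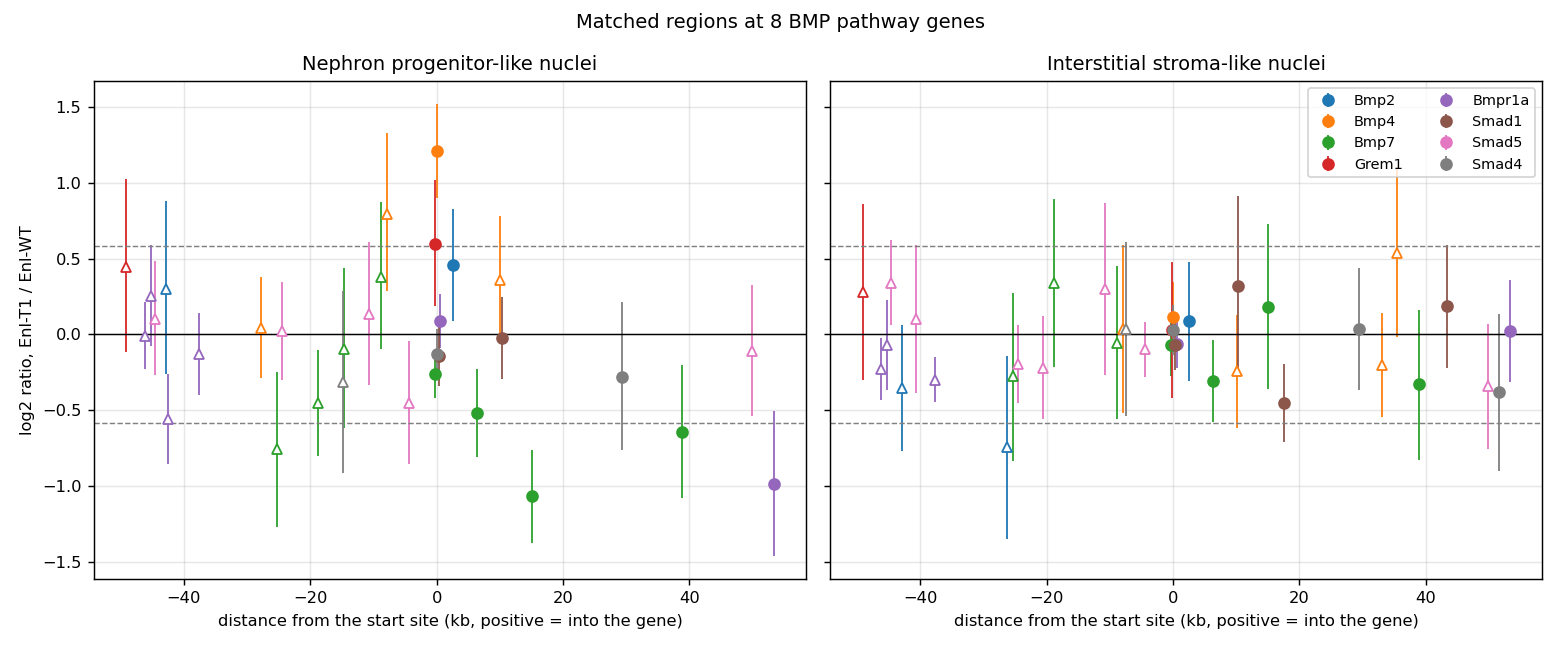
Log2 ratio of Enl-T1 over Enl-WT (y axis) of matched regions with at least 200 counts against the distance from the start site (x axis, kb), in progenitor-like nuclei (left) and interstitial stroma-like nuclei (right); circles lie in the gene or its 2 kb upstream, open triangles within 50 kb outside it, colours mark genes, bars are 95% counting intervals and dashed lines mark 1.5-fold. On the left the Bmp4 start site stands at 1.21 and introns of Bmp7 and Bmpr1a at -1.07 and -0.98, while on the right no circle passes a dashed line.

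Peaks called in 1 library only lie outside these ratios. There were 26 at the members, 21 of 54 peaks (38.9%) for Enl-WT against 5 of 42 (11.9%) in Enl-T1. Over the whole libraries 47872 of 159560 Enl-WT peaks and 17478 of 130027 Enl-T1 peaks, the latter 13.4%, had no overlap in the other library. In Enl-WT, Smad4 had 6, Bmp7 5, Bmpr1a and Smad1 4 each. A Bmp7 intronic peak 50 kb from the start site had 1262 counts over the named classes of Enl-WT, at 21.1 CPM of all peaks in distal tubule-like, 17.4 in ureteric epithelium-like and 11.6 in progenitor-like nuclei. The 1 Bmp7 peak of Enl-T1 alone, 52 kb from the start site, was highest among the compared classes in interstitial stroma-like nuclei, at 8.57 CPM. A Bmpr1a intronic peak of Enl-WT at 58 kb was at 16.7 CPM in podocyte-like and 4.47 in progenitor-like nuclei. Since no count was made at these places in the other library, no level can be given for it.

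The wider pathway was described with 6 lists of ligands, receptors, extracellular inhibitors, SMADs, intracellular inhibitors and target genes, 60 genes in all with the 8 members among them. In progenitor-like nuclei 57 were measured, 2 were higher in Enl-T1 and 0 lower, beside 3.82% and 4.29% of all genes, so the count is near the background share. The median log2 ratio was 0.10 beside 0.01 over all genes. The 2 were Grem1 and Msx2, a homeobox gene that BMP signals switch on, which had 13.4 CPM for Enl-WT against 20.8 for Enl-T1, with a log2 ratio of 0.64 (0.37 to 0.91). The 1 peak of Msx2 is matched, and in stroma-like nuclei the gene's log2 ratio was 0.12, with an interval that includes 0. All 12 target genes were measured, with the highest median of the 6 lists, 0.23. Id1, the classic BMP target, had 60.5 and 85.8 CPM in progenitor-like nuclei, a log2 ratio of 0.50, and 86.8 and 81.4 in stroma-like nuclei, a log2 ratio of -0.09. Its relatives Id4, Id2 and Id3, which like Id1 encode dominant-negative helix-loop-helix proteins, had log2 ratios of 0.44, 0.25 and 0.21 in progenitor-like nuclei, and Bambi, a pseudoreceptor, had 0.32, all under the fold used for a call and with intervals above 0. In stroma-like nuclei Id4 was higher too, at 58.8 and 74.8 CPM, a log2 ratio of 0.35 (0.23 to 0.46), whereas Id2, Id3 and Bambi had -0.07, -0.10 and 0.04. Msx1 was level, at -0.01. In progenitor-like nuclei the matched peaks of Gata2, Smad7 and Hey1 had log2 ratios of 0.34, 0.18 and 0.14. Those of the other target genes, Smad6 and Gata3, had 0.09 and 0.08. Smad6, Smad7 and Bambi are also in the list of intracellular inhibitors, whose median in progenitor-like nuclei was 0.07. The medians of the receptors and the SMADs were -0.05 and -0.04. Over matched peaks the receptors ran from -0.67 (-0.82 to -0.53) for Acvr2b to 0.51 (0.39 to 0.62) for the type I receptor Bmpr1b in progenitor-like nuclei, the latter under the fold used for a call.

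In interstitial stroma-like nuclei 56 list genes were measured and Grem1 alone was higher, 0 were lower, and the median was -0.02. In ureteric epithelium-like nuclei 55 were measured, and again Grem1 alone was higher. In endothelium-like nuclei 44 were measured, with the BMP and activin antagonist Fst higher, at 14.5 and 22.9 CPM, a log2 ratio of 0.66 (0.08 to 1.22), and the ligand Bmp8a lower, at 27.3 and 16.6, a log2 ratio of -0.72 (-1.32 to -0.15), beside 1.06% and 1.43% of all genes. Over matched peaks neither was called: Fst had a log2 ratio of 0.54 with an interval that includes 0, and Bmp8a had only 22 and 6 counts. Over matched peaks alone, 55 list genes were measured in progenitor-like nuclei, 4 were higher and 1 lower, beside 3.82% and 4.16% of all 20712 genes so measured. These were Bmp4, Bmp5 at a log2 ratio of 0.62, Msx2 and Grem1, and the type II receptor Acvr2b at -0.67, named after their values were seen. With matched peaks 0 of 52 list genes were called in stroma-like nuclei, beside 1.63% higher and 0.848% lower.

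**Figure D4:**
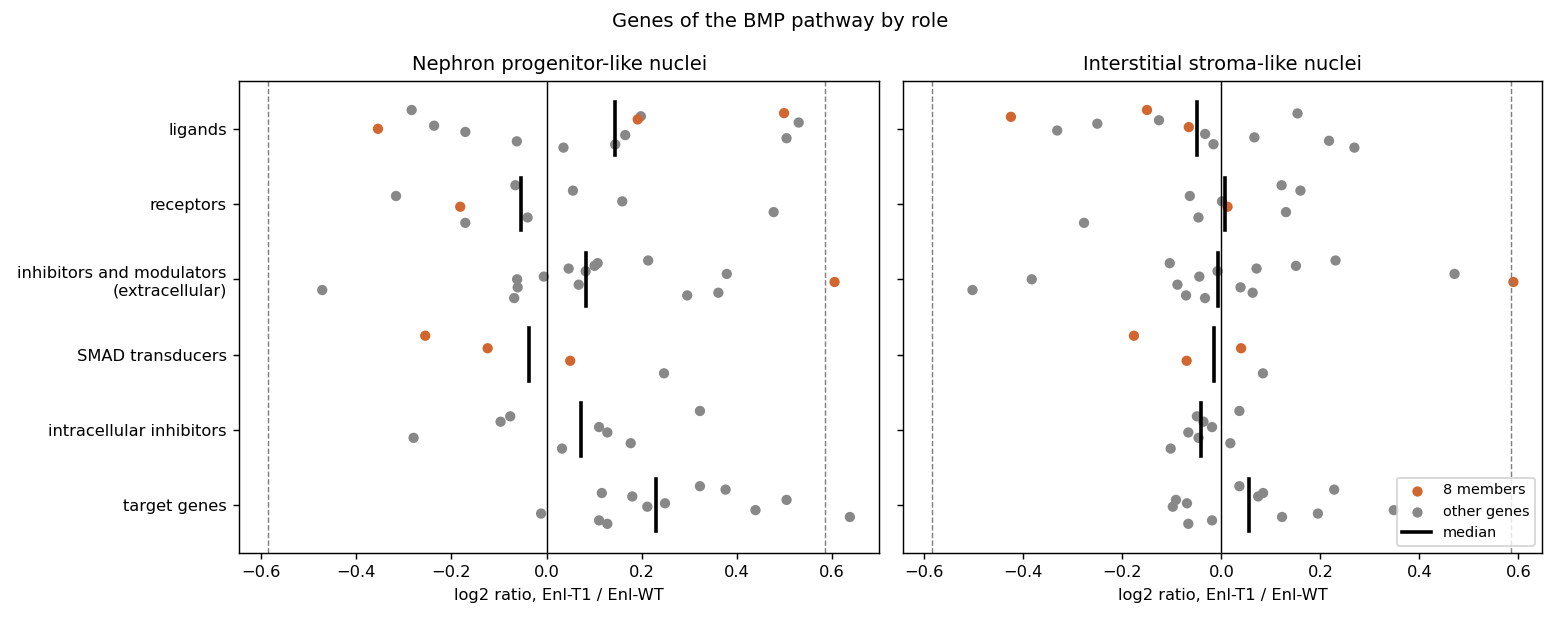
Log2 ratio of Enl-T1 over Enl-WT (x axis) of gene sums for the pathway genes with at least 200 counts, by role (y axis), in progenitor-like (left) and interstitial stroma-like nuclei (right), 1 library each; orange points are the 8 members, black bars the medians and dashed lines 1.5-fold. The median bar of the target genes lies at 0.23 in progenitor-like nuclei, against 0.06 in stroma-like nuclei.

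Over all kept nuclei of a library, which also carry the make-up of the kidney, Bmp7 had 100.3 CPM for Enl-WT against 80.3 in Enl-T1, Bmp4 68.3 and 52.2, and Grem1 9.85 and 15.8. Bmp2 stood at 35.3 and 34.5, Bmpr1a at 47.6 and 47.4, Smad1 at 73.1 and 62.5, Smad5 at 53.0 and 52.1, and Smad4 at 49.3 and 46.7. In these sums a different share of a class and a different level within it cannot be told apart.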

How the data were processed

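Single-nucleus ATAC-seq of 2 libraries, Enl-WT and Enl-T1, was analysed, with groups taken from the labels. The deposited counts are whole-number transposase cuts per peak and barcode, made by the authors with Cell Ranger ATAC 2.1.0 on mm10, with peaks called in each library separately. Most counts are even because a fragment has 2 ends, so intervals were computed on fragments, taken as counts over 2. Because each fragment is counted at its cut sites in peaks of unequal width, sums move with the length called.

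Nuclei with 2000 to 100000 counts were kept. Peaks overlapping by at least 1 bp were joined, weighted by inverse document frequency and reduced to components 2 to 30, leaving out regions of the pathway genes, and clustered (Leiden resolution 1, 15 neighbours, leidenalg 0.10.2, scikit-learn 1.9.0). Clusters were called X-like after the best-scoring of 11 lists of 8 markers, with a score of at least 0.4 and 3 raised markers. A lead of 0.1 log2 was required over the best class of another lineage. The nephron-like classes counted as a single lineage, as did the stromal classes, so no lead of progenitor over early nephron markers was required. 1 cluster of 388 nuclei stayed unnamed. Doublets were kept in the main result. Counts were summed per class and library, scaled to CPM (counts per 1000000), and log2 ratios given with exact 95% intervals (scipy 1.17.1). No test was run, since each group is 1 library. The ratio, interval and call were tested on simulated data. Depth was 138176616 counts over 9628 barcodes in Enl-WT and 110265593 over 13376 in Enl-T1, and counting intervals do not cover variation between embryos.

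Members, lists and rules were chosen with earlier results of these data known. All 8 members were named, with list genes past 1.5-fold in progenitor-like or stroma-like nuclei (at most 4 per list), regions past it (at most 12 per class), and the 3 genes most alike for Bmp4, Bmp7 and Grem1. Fst, Bmp8a, Id1, Id2, Id3, Id4, Bambi, Msx1, Bmp5, Acvr2b and uncalled regions were named after their values were seen. The same holds for Gata2, Gata3, Hey1, Smad6, Smad7 and Bmpr1b. Promoters came from RefSeq for 5 of 8 members, Bmp4, Grem1, Bmpr1a, Smad1 and Smad5, and not for Bmp2, Bmp7 and Smad4.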

Additional observations from a re-analysis of the deposited data

Results flagged for a closer look

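Bmp4 was flagged because its gene sums moved in opposite directions in the classes of the same contrast, a difference that was not tested. In nephron progenitor-like nuclei the log2 ratio of Enl-T1 over Enl-WT was 0.19 and in interstitial stroma-like nuclei it was -0.43, and both counting intervals exclude 0. The stroma-like value rests on the region 2.5 kb into the gene, where the peaks cover 2245 bp of Enl-WT against 941 bp of Enl-T1, and over matched peaks the log2 ratio was 1.21 in progenitor-like and 0.12 in stroma-like nuclei. In cluster 4 alone the progenitor-like gene sum was -0.96, from 22 Enl-T1 counts, so its direction also turns there.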

How the results depend on the processing

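No paired analysis was possible because each group is 1 library. Of 464 member ratios under alternatives, 418 stayed within their counting interval and 46 did not. Of those whose own interval excludes 0, the sign turned in progenitor-like cluster 4 for Bmp4 (-0.96), Bmp7 (0.30), Grem1 (-0.98) and Smad1 (0.06). With matched or start site regions it turned for Bmp4 in stroma-like (0.12, 0.15) and ureteric epithelium-like nuclei (0.13, 0.16), and with start site regions or thinning for progenitor-like Bmpr1a (0.13, 0.06). In cluster 4 the matched regions of Bmp7 at 39 kb and 15 kb and of Grem1 at its promoter turned sign as well, to 0.50, 0.83 and -1.37, from 9, 27 and 2 counts in Enl-T1. The count of members higher in progenitor-like nuclei, 1, became 2 with regions matched at 80%, start site regions only, resolution 2 or a lower fold, and 0 with a minimum of 5000 counts, resolution 0.5, components 2 to 15, mutual nearest neighbour correction, list regions kept in the clustering, doublet-like nuclei removed, or cluster 4 alone. The count lower, 0, became 2 in cluster 4 and 1 at a lower fold. The progenitor-like median became 0.12 with start site regions only. In stroma-like nuclei the count higher became 0 with matched regions, median of ratios scaling, doublet-like nuclei removed or thinning to 4000 counts, and the count lower became 1 at a lower fold. In ureteric epithelium-like nuclei the count higher became 0 with matched regions or thinning, and the count lower 1 at a lower fold. In endothelium-like nuclei the count higher became 1 with mutual nearest neighbour correction. Over matched peaks the member regions lower in progenitor-like nuclei went from 6 to 3, and in stroma-like nuclei those higher from 1 to 0 and those lower from 3 to 0. Matched regions, cluster 4, the largest progenitor cluster of each library and joined stroma classes were chosen after seeing the data as settings for these counts, except that matched regions were planned for gene sums. Depth limits endothelium-like values most, where a gene needed 200 counts and Grem1 had 47.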
